A study of Mus musculus with 80 samples.

Results

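Old hematopoietic stem cells (HSCs) with a low level of CD150 on their surface were profiled by bulk RNA-seq when freshly isolated and again on day 4 after transplantation. The comparison is between 3 libraries of transplanted CD150L cells (replicates 1 to 3) and 3 libraries of fresh G1 cells (mice 1 to 3). A gene was taken where its mean reached 1 FPKM in at least 1 of these groups, which held for 11584 of the 21825 gene symbols. FPKM are fragments scaled to transcript length and to the mapped fragments of the library, so levels of different genes are compared per length. Of the genes taken, 10336 reached the floor in both groups, 835 in fresh G1 cells only and 413 in transplanted cells only. *Lcn12*, with a fresh mean of 1.00 FPKM, was just inside the floor and *Klhl35*, at 0.999 FPKM, just outside it.

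The series holds 80 samples, of which 24 are bulk RNA libraries of mouse HSCs in 8 groups of 3. Donors were male C57BL/6 mice of 22 to 24 months with no genetic change, and HSCs were sorted as lineage-negative, Sca-1+, c-Kit+, CD48-, CD34- and CD150+ cells. Old HSCs were divided by CD150 protein into 4 groups of 25% each, from G1 (lowest) to G4 (highest). For transplantation, CD150L old HSCs were injected together with Sca-1-depleted helper marrow cells into CD45.1 male mice irradiated with 9.5 Gy. On day 4, sorted donor HSCs were profiled from the marrow. The transplanted cells therefore differ from G1 in having been injected into an irradiated host. The study describes them as HSCs that had not yet begun to differentiate. In its flow cytometry, most transplanted old HSCs were still HSCs on day 4. For HSC transplantation the methods name C57BL/6 or GFP+ male mice of 2 to 3 months. They name the CD45.1 recipients apart from these and give no age in months for the day 4 recipients. The part of host age was not tested. Whether the transplanted CD150L gate equals G1, which markers defined the day 4 sort, and whether the 3 replicates came from separate donors and recipients is not given in the sources used here. The time of day 4 is that of the sample titles and the methods, while the names of the deposited tables give 4.5 days. The titles of the fresh libraries name mice 1 to 3. With no word on separate animals for the transplanted replicates, p-values measure only the spread between these libraries, which for that group may be technical.

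HSCs sit at the top of blood formation and in the resting marrow are mostly out of the cell cycle. Quiescence is held by signals of the niche and by inhibitors of cyclin-dependent kinases such as p57 (*Cdkn1c*). An HSC placed in an irradiated marrow divides and forms progenitors, which calls for DNA replication, mitosis, new ribosomes and mitochondrial respiration.

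Summed FPKM per library ran from 567732.5 to 702434.3, and 10503 to 11119 genes reached 1 FPKM. Read totals are not given. The spacing of low values put the depth of the transplanted libraries at 0.584 to 0.673 of that of fresh mouse 1. Fresh mouse 3 stood apart: it correlated with fresh mice 1 and 2 at r = 0.907 and 0.912 (log2 values across 11156 genes, a description), while mice 1 and 2 reached 0.975 and the transplanted libraries 0.965 to 0.969 with each other. Its part in the counts is given beside them.

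Of the 11584 genes tested, 677 rose (5.84%) and 1317 fell (11.4%) after transplantation. The counts of every gene list below are to be read beside these shares. A call required an adjusted p below 0.05 together with a change of more than 2-fold either way, from limma on log2(FPKM + 1), a scale that understates changes of low genes, with Benjamini-Hochberg adjustment. In bulk samples, fewer cells with a transcript and less of it per cell cannot be told apart. All fold changes are given on this scale, as transplanted minus fresh. The median change among rising genes was 1.40 and among falling genes 1.48 in size, and 120 rises and 225 falls were larger than 4-fold. Of the called genes, 94 rises started from a fresh mean under 1 FPKM and 260 falls ended at a transplanted mean under 1 FPKM. The 6 libraries did not overlap between groups, with every transplanted value on the same side of every fresh value, for 1963 higher (16.9%) and 3026 lower genes (26.1%). Over all genes tested the median change was -0.17. It was -0.34 with libraries scaled to the same sum and -0.05 with median-of-ratios scaling, so changes are read relative to it. Rises made up 34.0% of calls as deposited, 20.5% (449 rises, 1745 falls) with the same sum and 45.9% (904 rises, 1064 falls) with median-of-ratios scaling. Without fresh mouse 3 there were 829 rises and 1868 falls. Without transplanted replicates 1, 2 and 3 in turn there were 433, 359 and 502 rises and 768, 518 and 791 falls, and without fresh mice 1 and 2 there were 570 and 501 rises and 910 and 818 falls. A further fresh group, old HSCs not separated by CD150 (unseparated, 3 libraries), gave 921 rises and 1272 falls of 11480 genes tested, and the calls it changed among the genes named are given beside them.

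**Figure D1:**
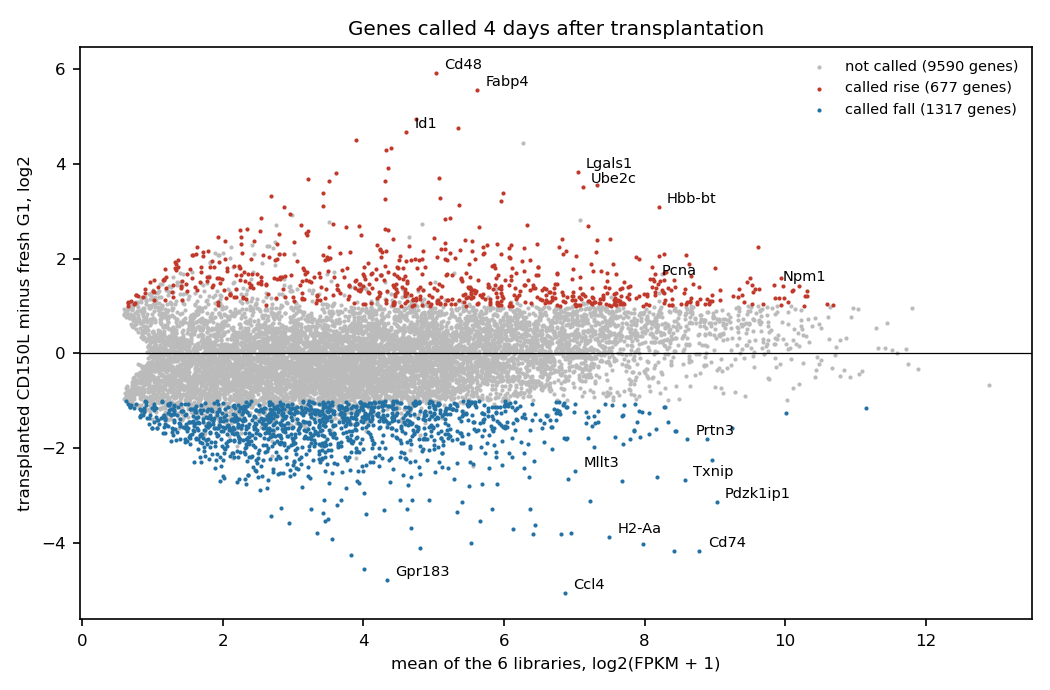
Each point is 1 of the 11584 genes tested, with the mean of the 6 libraries on the x axis (log2(FPKM + 1)) and the log2 change from fresh G1 to transplanted CD150L on the y axis. The 677 genes called as rising are red and the 1317 called as falling are blue. *Cd48* lies highest at 5.91 and *Ccl4* lowest at -5.05.

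**Figure D2:**
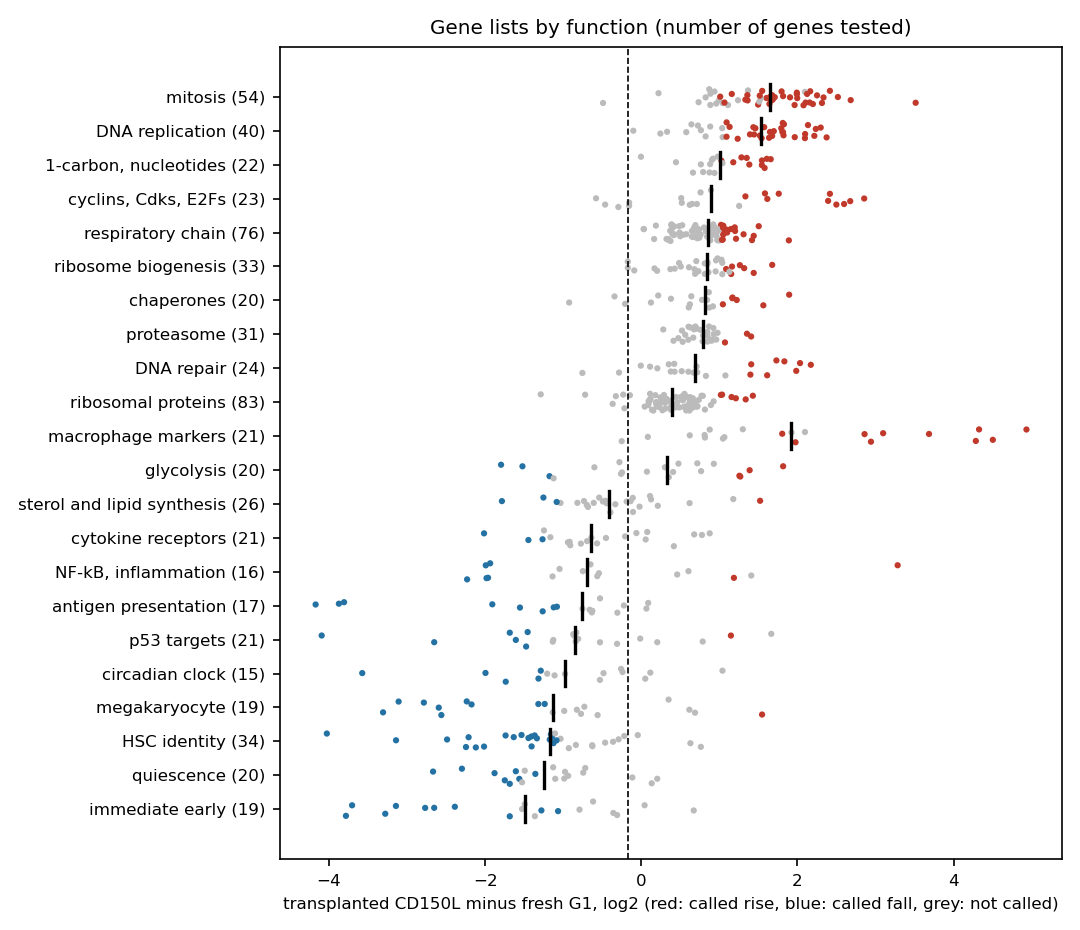
Change of each tested member of 22 gene lists (log2, transplanted minus fresh), with the number of members tested in brackets, red for a called rise, blue for a called fall and grey for no call. Thick bars are list medians and the dashed line is the median of all genes, -0.17. Mitosis (1.65) and DNA replication (1.53) lie to the right, and HSC identity (-1.17), quiescence (-1.24) and immediate early genes (-1.49) to the left.

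The genes of the sort gate came first, as a check of the labels. *Slamf1*, which encodes CD150, was at 29.4, 29.2 and 15.2 FPKM in fresh mice 1 to 3 and at 14.2, 14.9 and 16.8 FPKM in transplanted replicates 1 to 3. Fresh mouse 3 lay within the transplanted range and the difference was not called (log2 fold change -0.60 ± 0.30 SE, adjusted p = 0.175). *Cd48*, another receptor of the SLAM family and absent from the surface of the sorted fresh cells, was at 0, 0.00281 and 0.0172 FPKM in fresh and at 42.2, 94.3 and 53.4 FPKM in transplanted cells, the largest of all called rises (log2 fold change 5.91 ± 0.35 SE, adjusted p = 0.000105). The fresh cells were selected for lacking CD48 protein, and since the day 4 gate is not given, the part of the sort in this difference was not tested. *Ly6a* (Sca-1), at 632, 636 and 1028 against 832, 624 and 724 FPKM, and *Cd34*, at 63.6, 69.3 and 28.6 against 72.5, 52.2 and 81.1 FPKM, overlapped between groups and were not called. *Kit*, the receptor of stem cell factor, was at 67.7, 63.4 and 163 FPKM in fresh and 33.4, 38.9 and 25.1 FPKM in transplanted cells and fell (log2 fold change -1.45 ± 0.36 SE, adjusted p = 0.0228). A call was lost on leaving out 1 library for *Kit* (without transplanted replicate 1, 2 or 3, adjusted p 0.0658 to 0.0831). With the unseparated group as fresh, *Kit* (-0.97, adjusted p = 0.00675) was not called and *Slamf1* (-1.69, adjusted p = 0.000112) was called.

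Genes of the cell cycle rose together. Of 54 genes of mitosis tested, 37 rose and none fell, with a median change of 1.65 (background 5.84% rising). Of 40 genes of DNA replication 29 rose and none fell (median 1.53), and of 23 cyclins, cyclin-dependent kinases, E2F factors and related regulators 10 rose and none fell (median 0.89). *Cdk1*, the kinase that drives entry into mitosis, was at 66.3, 43.4 and 43.0 FPKM in the fresh and 231, 264 and 309 FPKM in the transplanted libraries (log2 fold change 2.39 ± 0.23 SE, adjusted p = 0.000845). All transplanted values lay above all fresh values. Its partner *Ccnb1* (cyclin B1) went from 22.3, 5.74 and 13.4 to 83.5, 64.7 and 105 FPKM (log2 fold change 2.68 ± 0.42 SE, adjusted p = 0.00419). *Ccna2* (cyclin A2) went from 17.7, 8.17 and 3.02 to 54.9, 62.2 and 73.0 FPKM (log2 fold change 2.86 ± 0.48 SE, adjusted p = 0.00546), and *Ccne2* (cyclin E2), which acts at the start of S phase, from 4.38, 7.60 and 3.09 to 32.0, 35.0 and 34.4 FPKM (log2 fold change 2.60 ± 0.32 SE, adjusted p = 0.00181). Of regulators of early G1 phase these were not called: *Ccnd1* (cyclin D1) had a change of 0.76, *Cdk6* -0.16, *E2f1* 1.25 and *Myc* -0.29. Without fresh mouse 3 *Ccnd1* was called (1.03, adjusted p = 0.00972), and *E2f1* was called in 1 fit of all 24 libraries (1.25, adjusted p = 0.0269). The change of *Cdk6* turned to 1.20 (adjusted p = 0.00611) against the unseparated old HSCs. *Myc* varied in the fresh cells, at 246, 199.7 and 57.7 FPKM, and the transplanted values of 131, 83.6 and 140.5 FPKM lay inside that range. When the unseparated cells were the fresh group, *E2f1* (1.86, adjusted p = 0.000365) was called.

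Within mitosis the largest called rise was that of *Ube2c*, the ubiquitin-conjugating enzyme of the anaphase-promoting complex. It stood at 34.2, 6.57 and 37.5 FPKM in fresh and 204, 259 and 286 FPKM in transplanted cells (log2 fold change 3.52 ± 0.54 SE, adjusted p = 0.00389). *Plk1*, a mitotic kinase, went from 5.99, 1.25 and 2.54 to 18.2, 17.8 and 39.8 FPKM (log2 fold change 2.68 ± 0.47 SE, adjusted p = 0.00631). *Mybl2*, a transcription factor of late cell cycle genes, went from 0.992, 2.60 and 0.172 to 9.43, 12.6 and 10.2 FPKM (log2 fold change 2.52 ± 0.42 SE, adjusted p = 0.00548). *Top2a* (topoisomerase II alpha) went from 30.5, 14.6 and 32.7 to 68.4, 112 and 87.8 FPKM (log2 fold change 1.80 ± 0.33 SE, adjusted p = 0.00729), and *Mki67*, the proliferation antigen Ki-67, from 9.46, 2.33 and 9.99 to 16.9, 27.0 and 24.1 FPKM (log2 fold change 1.68 ± 0.46 SE, adjusted p = 0.0318). Fresh mouse 2 was lowest for each of *Ube2c*, *Plk1*, *Top2a* and *Mki67*. Summed over the 54 genes, mitosis stood at 1474.0, 874.5 and 1660.9 FPKM in fresh mice 1 to 3 and at 3396.0, 4055.8 and 4484.4 FPKM after transplantation. Fresh old HSCs not separated by CD150 summed to 830.4, 626.9 and 895.1 FPKM, and with them as the fresh group 52 of 54 genes rose. Leaving out transplanted replicate 2 left 18 rises in mitosis, and leaving out fresh mouse 3 gave 39. Leaving out single libraries removed the call of *Mki67* (without transplanted replicate 1, 2 or 3 or fresh mouse 2, adjusted p 0.0584 to 0.135).

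The promoters of these genes are shown because late cell cycle genes often share a cell cycle genes homology region (CHR, TTTGAA) and CCAAT boxes, and replication genes E2F sites. Each sequence runs 5′ to 3′ on the strand of the gene and ends at the base before the transcription start, from RefSeq on GRCm38.p6. The first 4 belong to mitosis genes that rose and whose promoter holds both a CHR and a CCAAT box (in capitals, on either strand). They were picked by size of rise after the values were seen. Not every chromosome was open to this choice, so other such genes may have risen more. Each is shown from 10 bases before its outermost match, or over at least 120 bases.
Ube2c: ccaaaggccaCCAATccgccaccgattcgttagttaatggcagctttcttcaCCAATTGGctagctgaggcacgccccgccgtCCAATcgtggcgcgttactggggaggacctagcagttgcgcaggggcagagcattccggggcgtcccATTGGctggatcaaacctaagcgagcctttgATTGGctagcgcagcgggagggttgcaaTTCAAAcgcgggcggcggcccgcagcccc
Ncapg: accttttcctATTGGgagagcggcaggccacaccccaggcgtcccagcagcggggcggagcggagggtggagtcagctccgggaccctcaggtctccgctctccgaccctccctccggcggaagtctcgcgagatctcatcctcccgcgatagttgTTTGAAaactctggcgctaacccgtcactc
Cdc20: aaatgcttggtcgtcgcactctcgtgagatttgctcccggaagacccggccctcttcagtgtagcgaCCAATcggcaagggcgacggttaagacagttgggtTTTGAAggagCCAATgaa
Cks1b: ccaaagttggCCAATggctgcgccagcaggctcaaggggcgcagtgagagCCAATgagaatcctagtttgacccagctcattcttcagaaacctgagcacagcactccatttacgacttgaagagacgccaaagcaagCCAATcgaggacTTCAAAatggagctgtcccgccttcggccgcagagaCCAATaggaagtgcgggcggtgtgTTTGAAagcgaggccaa
These lie at chr2:164769691-164769928 (plus strand) for *Ube2c*, chr5:45669739-45669924 (plus strand) for *Ncapg* (a condensin subunit), chr4:118437344-118437463 (minus strand) for *Cdc20* (an activator of the anaphase-promoting complex) and chr3:89418292-89418518 (minus strand) for *Cks1b* (a subunit of cyclin-dependent kinases). *Ncapg* changed by 2.20, *Cdc20* by 2.11 and *Cks1b* by 2.08, all called rises. *Mcm5* and *Cdc6*, which load the replicative helicase or belong to it, were the rising replication genes whose promoter held an E2F site, as TTTGGCGC or TTTCCCGC (in capitals, on either strand).
Mcm5: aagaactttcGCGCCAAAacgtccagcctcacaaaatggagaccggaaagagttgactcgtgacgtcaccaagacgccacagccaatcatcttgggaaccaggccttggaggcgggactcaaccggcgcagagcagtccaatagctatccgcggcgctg
Cdc6: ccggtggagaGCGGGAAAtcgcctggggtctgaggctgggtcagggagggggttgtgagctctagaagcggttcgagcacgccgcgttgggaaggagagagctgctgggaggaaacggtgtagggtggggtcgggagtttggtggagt
They lie at chr8:75109350-75109508 (plus strand) and chr11:98908003-98908150 (plus strand). In the 250 bases before the start site, 36.4% of the 33 promoters of the 32 matched mitosis genes that rose held a CHR and 66.7% a CCAAT box, against 16.0% and 33.8% of all 32851 promoters and 11.2% and 35.9% of the 11866 promoters of genes tested. Both were present in 33.3% of the mitosis promoters, 5.55% of all promoters and 4.45% of those of genes tested. Of the 628 promoters of all rising genes 15.6% held a CHR, 44.7% a CCAAT box and 8.28% both. Mitosis genes that did not rise were not compared, so these shares describe the list and not the response. An E2F site was in 7.41% of the 27 promoters of replication genes that rose (2 promoters), 9.09% of the 33 of mitosis genes that rose (3 promoters), 3.98% of the 628 of all rising genes, 1.30% of all promoters and 2.49% of those of genes tested. CCAAT was counted on both strands, so CCAATTGG holds 2 overlapping matches. A match is a description of the sequence and not of a bound site.

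The replication machinery rose across its steps. *Mcm5*, a subunit of the replicative helicase, was at 28.1, 20.4 and 11.5 FPKM in fresh and 94.4, 80.2 and 118 FPKM in transplanted cells (log2 fold change 2.30 ± 0.32 SE, adjusted p = 0.00274). *Gins1*, which joins the helicase, went from 15.1, 9.86 and 17.9 to 94.4, 73.1 and 63.9 FPKM (log2 fold change 2.37 ± 0.28 SE, adjusted p = 0.0015), and *Mcm10*, an initiation factor, from 5.59, 1.67 and 2.39 to 17.2, 20.7 and 14.8 FPKM (log2 fold change 2.24 ± 0.38 SE, adjusted p = 0.00557). *Pcna*, the sliding clamp of the polymerases, was even across the fresh mice at 145, 136 and 136 FPKM and across the transplanted replicates at 414, 453 and 384 FPKM (log2 fold change 1.57 ± 0.17 SE, adjusted p = 0.00126). *Rrm2*, the regulatory subunit of ribonucleotide reductase, went from 22.2, 27.1 and 19.3 to 100.5, 100.3 and 129 FPKM (log2 fold change 2.22 ± 0.22 SE, adjusted p = 0.000882). Of 24 DNA repair genes 8 rose and none fell (median 0.69), and the exonuclease *Exo1* rose from 12.7, 14.7 and 14.9 to 66.1, 61.3 and 73.5 FPKM (log2 fold change 2.17 ± 0.21 SE, adjusted p = 0.000845). Of 22 chromatin genes tested, 6 rose (27.3%) and 3 fell (13.6%). *Uhrf1*, which recruits maintenance methylation to replicated DNA, went from 6.77, 4.11 and 3.012 to 32.9, 41.4 and 24.7 FPKM (log2 fold change 2.62 ± 0.33 SE, adjusted p = 0.00198), and *Hells*, *Hmgb2* and *Ezh2*, the methyltransferase of Polycomb, changed by 1.88, 1.47 and 1.25. *Ezh1*, the Ezh2 homolog of resting cells, fell from 13.7, 23.5 and 28.05 to 6.11, 3.32 and 2.69 FPKM (log2 fold change -2.18 ± 0.37 SE, adjusted p = 0.00575), and *Kdm5b* and *Tet2* fell with changes of -1.86 and -1.68. *Tet2* in unseparated old HSCs was at 3.67, 2.49 and 3.03 FPKM, overlapping the transplanted range of 2.54 to 3.29 FPKM. *Dnmt1*, the maintenance methyltransferase, had a change of 0.94 and was not called, but was called without fresh mouse 3 (1.32, adjusted p = 0.00199). Among 62 histone genes 4 rose (6.45%) and 5 fell (8.06%), with near-identical copies whose reads cannot be told apart. Across leave-one-out fits, rises in histones numbered 1 without transplanted replicate 3 and 16 without fresh mouse 3 and falls in histones numbered 3 without transplanted replicate 2. Taking the unseparated group in place of G1, *Kdm5b* (-0.77, adjusted p = 0.0272) and *Tet2* (-0.034, adjusted p = 0.929) were not called and *Dnmt1* (2.26, adjusted p = 4.39e-05) was called. There, DNA repair gave 15 rises of 24, and histones gave 37 rises and 2 falls of 60.

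**Figure D3:**
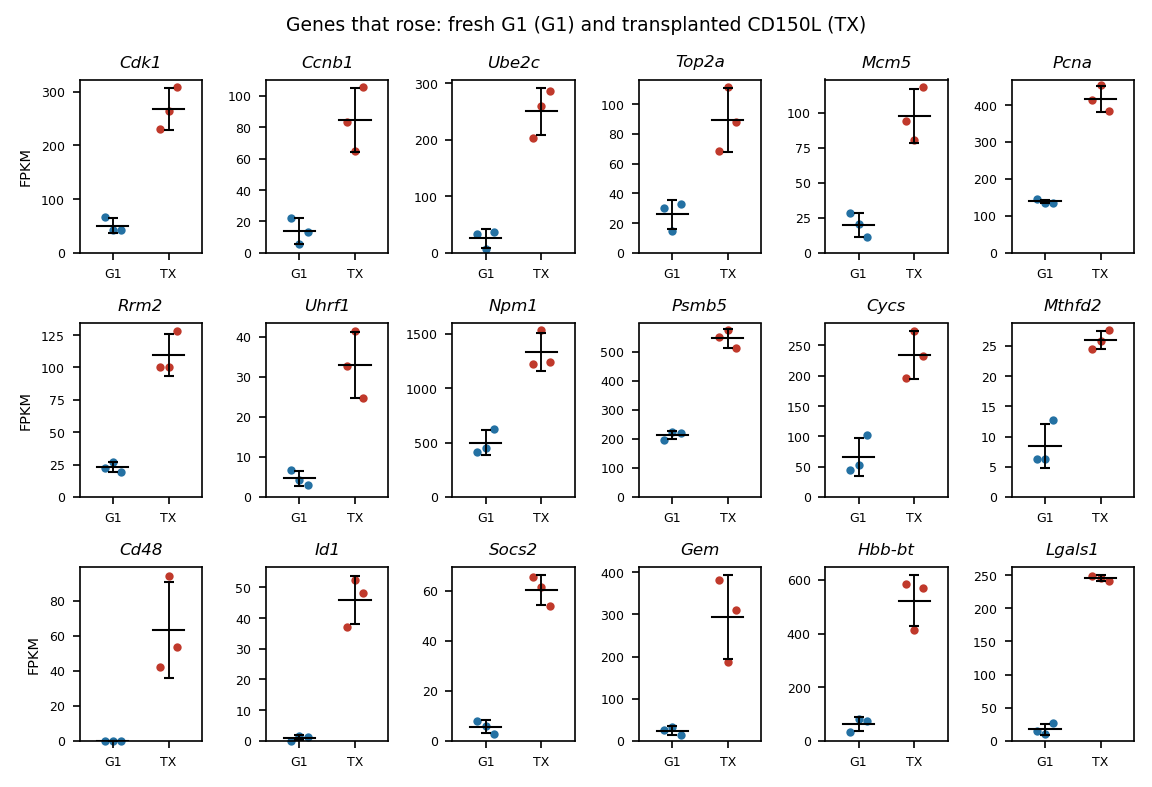
FPKM of 18 genes called as rising, in fresh G1 (blue, mice 1 to 3 from left to right) and transplanted CD150L libraries (red, replicates 1 to 3), with the mean and SD of 3 libraries in black. In every panel all transplanted values lie above all fresh values, for example *Pcna* at 136 to 145 FPKM against 384 to 453 FPKM. This was a condition for naming part of these genes, and it held for 16.9% of all genes tested.

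Genes of ribosome biogenesis and of one-carbon and nucleotide synthesis rose as well. Of 33 ribosome biogenesis genes 7 rose and none fell (median 0.85). *Npm1*, a nucleolar chaperone of ribosome assembly, was at 409.7, 454 and 628 FPKM in fresh and 1222, 1539 and 1246 FPKM in transplanted cells (log2 fold change 1.44 ± 0.22 SE, adjusted p = 0.00352), *Nhp2*, of the box H/ACA particle, changed by 1.68 and *Ncl* (nucleolin) by 1.09. The ribosomal proteins themselves had a median of 0.39, and 6 of 83 rose (7.23%), a share near the 5.84% of all genes tested. Of 22 genes of one-carbon and nucleotide synthesis 10 rose and none fell (median 1.00). *Mthfd2*, of the mitochondrial folate pathway, went from 6.33, 6.29 and 12.7 to 24.5, 25.9 and 27.6 FPKM (log2 fold change 1.58 ± 0.31 SE, adjusted p = 0.00906), and *Shmt1*, serine hydroxymethyltransferase, from 22.9, 17.97 and 11.9 to 50.6, 46.0 and 75.1 FPKM (log2 fold change 1.66 ± 0.30 SE, adjusted p = 0.00688). Both enzymes feed carbon into purine and thymidylate synthesis. Among leave-one-out fits, rises in ribosome biogenesis numbered 11 without fresh mouse 3, rises in one-carbon and nucleotide synthesis numbered 6 without transplanted replicate 1 or 3 and rises in ribosomal proteins numbered 2 without fresh mouse 2. In the comparison with unseparated cells, ribosome biogenesis gave 13 rises of 33, and ribosomal proteins gave 2 rises of 82.

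All 76 nuclear genes of the respiratory chain had a higher fitted level after transplantation (median 0.86, smallest change 0.03), and 19 of them rose (25.0%). Over all genes tested 4854 of 11584 were higher and 5.84% rose. These directions are of the values as deposited. Scaling to the same sum moved the median of all genes from -0.17 to -0.34. *Cycs* (cytochrome c) went from 43.8, 52.7 and 102 to 196, 274 and 233 FPKM (log2 fold change 1.89 ± 0.31 SE, adjusted p = 0.005), and *Cox5a* and *Uqcrq*, subunits of complexes IV and III, changed by 1.44 and 1.50. For these 3 genes fresh mouse 3 was the highest of the fresh mice. Summed over the list, fresh mouse 3 stood at 43780.6 FPKM, against 23502.2 and 24554.1 FPKM in mice 1 and 2 and 50093.1 to 58867.1 FPKM after transplantation. Without fresh mouse 3, 45 of the 76 rose, and without transplanted replicate 2, 6 rose. In the citric acid cycle 2 of 22 genes rose (9.09%), *Fh1* (1.34) and *Idh3a*, which went from 85.0, 77.6 and 77.9 to 200.4, 183 and 199 FPKM (log2 fold change 1.26 ± 0.18 SE, adjusted p = 0.00274), while *Idh1*, the cytosolic isocitrate dehydrogenase, fell from 44.1, 55.4 and 45.0 to 18.01, 13.9 and 16.97 FPKM (log2 fold change -1.51 ± 0.23 SE, adjusted p = 0.00361). Proteasome subunits were higher in 31 of 31 genes as deposited (median 0.79, smallest change 0.28). Of these 3 rose (9.68%, near the 5.84% of all genes tested), *Psmb5*, *Psmd6* and *Psmd14*. *Psmb5*, a catalytic subunit, was at 197, 224 and 219 FPKM in fresh and 550.4, 577 and 512 FPKM in transplanted cells (log2 fold change 1.35 ± 0.17 SE, adjusted p = 0.00197). Without fresh mouse 3, 11 proteasome genes rose. Of 12 housekeeping genes *Pgk1* rose (8.33%) and none fell (median 0.22), and of 14 heme and iron genes *Hmox1* rose (7.14%, median 0.11, and -0.06 with libraries scaled to the same sum). Of 20 chaperones 6 rose and none fell (median 0.81), led by *Hspe1* (a change of 1.89), the co-chaperonin of mitochondria, and by *Tcp1* (1.56) and *Cct6a* (1.22) of the cytosolic chaperonin. Not called when 1 library was left out were *Cox5a* (without transplanted replicate 2, adjusted p 0.0573), *Uqcrq* (without transplanted replicate 2, adjusted p 0.0628) and *Psmd14* (without fresh mouse 2, adjusted p 0.0414). Against the unseparated old HSCs, *Fh1* (0.99, adjusted p = 0.000313), *Psmd6* (0.92, adjusted p = 0.000467), *Psmd14* (0.88, adjusted p = 0.000143) and *Cct6a* (0.99, adjusted p = 0.000145) were not called. There, the proteasome gave 1 rise of 31.

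Of 17 genes of the unfolded protein and integrated stress responses 4 rose (23.5%) and 3 fell (17.6%), with a median of 0.36. Of all genes tested 5.84% rose and 11.4% fell. *Sdf2l1*, of the endoplasmic reticulum, went from 8.82, 21.8 and 24.6 to 68.0, 108 and 87.4 FPKM (log2 fold change 2.29 ± 0.37 SE, adjusted p = 0.00477), and *Creld2*, *Hsp90b1* and *Manf*, of the same compartment, rose with changes of 1.27, 1.05 and 1.05, the last with an adjusted p of 0.0469. *Trib3*, a pseudokinase induced by stress, was at 31.6, 19.5 and 14.9 FPKM in fresh and 2.85, 0.964 and 1.23 FPKM in transplanted cells (log2 fold change -3.10 ± 0.39 SE, adjusted p = 0.00195), and *Ddit3* (CHOP) fell from 44.3, 50.5 and 92.9 to 17.2, 15.1 and 16.9 FPKM (log2 fold change -1.79 ± 0.30 SE, adjusted p = 0.0051). *Dnajb9*, a co-chaperone of the endoplasmic reticulum, fell from 18.9, 21.6 and 17.9 to 9.10, 7.53 and 8.59 FPKM (log2 fold change -1.12 ± 0.25 SE, adjusted p = 0.0145). Among 22 redox genes, of which 9.09% rose and 4.55% fell, *Txn1* (thioredoxin) and *Prdx4* rose, by 1.30 and 1.37, and *Gstm1*, a glutathione transferase, fell from 528, 623 and 1071 to 258, 170.3 and 184 FPKM (log2 fold change -1.81 ± 0.29 SE, adjusted p = 0.00442). On omission of single libraries, rises in the stress responses numbered 2 without transplanted replicate 2 or 3 or fresh mouse 2, rises in redox genes numbered 1 without transplanted replicate 2 and falls in redox genes numbered 2 without transplanted replicate 1. Single left-out libraries ended the call of *Creld2* (without transplanted replicate 2, adjusted p 0.0586), *Hsp90b1* (without transplanted replicate 3 or fresh mouse 2, adjusted p 0.0327 to 0.0381), *Dnajb9* (without transplanted replicate 1, 2 or 3 or fresh mouse 2, adjusted p 0.0503 to 0.0632) and *Txn1* (without transplanted replicate 2, adjusted p 0.0555). With the unseparated group as fresh, *Creld2* (0.15, adjusted p = 0.435) and *Hsp90b1* (0.46, adjusted p = 0.0106) were not called. There, the stress responses gave 1 rise of 17.

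Glycolysis held both directions, with 4 of 20 genes rising (20.0%, against 5.84% of all genes tested) and 3 falling. The falling share of 15.0% was near the 11.4% of all genes tested. *Pgk1* went from 119, 96.0 and 83.2 to 263, 239 and 277 FPKM (log2 fold change 1.39 ± 0.20 SE, adjusted p = 0.00302), and *Slc16a1*, a lactate carrier, from 9.79, 4.58 and 4.75 to 27.2, 20.8 and 23.7 FPKM (log2 fold change 1.82 ± 0.32 SE, adjusted p = 0.00664). The glucose carrier *Slc2a3* fell from 46.4, 47.0 and 42.9 to 12.2, 11.7 and 13.3 FPKM (log2 fold change -1.80 ± 0.22 SE, adjusted p = 0.00175), and *Aldoc* fell with a change of -1.52. The hexokinases split: *Hk2* rose, from 10.3, 11.6 and 7.30 to 19.5, 39.4 and 18.99 FPKM, and *Hk1* fell, from 49.7, 42.3 and 63.7 to 23.4, 17.2 and 26.9 FPKM. *Gapdh* (0.93, adjusted p = 0.0102) missed the fold threshold, with every transplanted value above every fresh value. With median-of-ratios scaling *Gapdh* was called (1.06, adjusted p = 0.00584). *Ldha* (0.72, adjusted p = 0.212) was not called, and its groups overlapped. In sterol and fatty acid synthesis 1 of 26 genes rose (3.85%) and 3 fell (11.5%, against 11.4% of all genes tested), with a median of -0.42. Fatty acid synthase, *Fasn*, rose from 3.90, 3.92 and 2.72 to 14.6, 12.4 and 9.14 FPKM, while *Insig1* and *Msmo1* fell with changes of -1.79 and -1.08. With old HSCs not separated by CD150 as the fresh group, the change of *Hk1* was 0.203, in the other direction and not called. In fits without 1 library, rises in glycolysis numbered 2 without transplanted replicate 1, 2 or 3, falls in glycolysis numbered 1 without transplanted replicate 2, rises in lipid synthesis numbered 0 without transplanted replicate 1 or 2 and falls in lipid synthesis numbered 0 without transplanted replicate 2 and 5 without fresh mouse 3. Without 1 library at a time, the call was lost for *Hk1* (without transplanted replicate 2, adjusted p 0.0627), *Hk2* (without transplanted replicate 1, 2 or 3 or fresh mouse 1 or 2, adjusted p 0.0527 to 0.106), *Fasn* (without transplanted replicate 1 or 2, adjusted p 0.0509 to 0.0517), *Insig1* (without transplanted replicate 2, adjusted p 0.055), *Msmo1* (without transplanted replicate 2 or 3 or fresh mouse 1 or 2, adjusted p 0.0586 to 0.0794) and *Aldoc* (without transplanted replicate 2, adjusted p 0.0518). When the unseparated cells were the fresh group, *Slc2a3* (-0.91, adjusted p = 0.00347) and *Hk2* (0.24, adjusted p = 0.557) were not called. There, glycolysis gave 1 fall of 20.

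Several genes of other lists were among the larger rises. *Id1*, an inhibitor of basic helix-loop-helix factors that responds to BMP signals, was at 0.043, 1.55 and 1.32 FPKM in fresh and 37.1, 52.3 and 48.3 FPKM in transplanted cells (log2 fold change 4.66 ± 0.39 SE, adjusted p = 0.000489). *Socs2*, a feedback inhibitor of cytokine signalling, went from 8.06, 5.95 and 2.92 to 65.5, 61.4 and 53.9 FPKM (log2 fold change 3.28 ± 0.33 SE, adjusted p = 0.00085). *Gem*, a small GTPase, went from 26.3, 34.1 and 13.5 to 382, 187 and 311 FPKM (log2 fold change 3.55 ± 0.37 SE, adjusted p = 0.00104). *Lgals1* (galectin-1) stood at 14.3, 11.01 and 27.2 FPKM in fresh cells and at an even 249.2, 245 and 241 FPKM in transplanted cells (log2 fold change 3.83 ± 0.30 SE, adjusted p = 0.000429), and *Ifi27l2a*, an interferon-responsive gene, went from 3.30, 2.76 and 5.34 to 69.0, 73.1 and 43.2 FPKM (log2 fold change 3.71 ± 0.31 SE, adjusted p = 0.000495). The adult beta globins *Hbb-bs* and *Hbb-bt* rose, the latter from 33.6, 83.0 and 75.7 to 583, 412 and 570.0 FPKM (log2 fold change 3.09 ± 0.33 SE, adjusted p = 0.0012). These copies are near-identical and their reads may be split between them, and *Hba-a1* and *Hba-a2* were listed at 0 in transplanted replicates 1 and 2. Taking the unseparated group in place of G1, *Hbb-bs* (1.83, adjusted p = 0.06) was not called.

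Genes of the stem cell program fell at the RNA level. Of 34 HSC identity genes 20 fell and none rose, with a median of -1.17 (background 11.4% falling). The sort gate genes *Kit* and *Ly6a* were among the 34. *Hlf*, a transcription factor of HSCs, fell from 64.6, 63.7 and 42.8 to 20.0, 15.8 and 13.2 FPKM (log2 fold change -1.74 ± 0.26 SE, adjusted p = 0.00361), and *Procr* (EPCR), a surface marker of HSCs, from 145, 139 and 82.9 to 51.7, 37.0 and 45.0 FPKM (log2 fold change -1.41 ± 0.26 SE, adjusted p = 0.00779). *Mllt3*, which maintains HSCs in culture, was at 175, 194 and 286 FPKM in fresh and a narrow 36.0, 36.4 and 39.4 FPKM in transplanted cells (log2 fold change -2.49 ± 0.23 SE, adjusted p = 0.000735). *Pdzk1ip1* fell from 721, 816 and 1279.8 to 116, 92.8 and 98.7 FPKM (log2 fold change -3.14 ± 0.24 SE, adjusted p = 0.000367). Smaller falls were those of *Gata2* (-1.53), *Meis1* (-1.13) and *Mecom* (-1.09), whose transplanted values of 35.4, 32.0 and 27.6 FPKM lay below the fresh 55.7, 55.4 and 102 FPKM. *Hoxa9* was not called, at 62.0, 68.9 and 31.3 against 44.2, 34.3 and 41.0 FPKM (log2 fold change -0.36 ± 0.31 SE, adjusted p = 0.419). Summed over the list the level was 4471.5 to 4808.0 FPKM in fresh and 1752.7 to 2173.5 FPKM in transplanted cells. Falls numbered 11 without transplanted replicate 1, 2 or 3 and 22 without fresh mouse 3. A call was lost on leaving out 1 library for *Gata2* (without transplanted replicate 1, 2 or 3 or fresh mouse 1 or 2, adjusted p 0.0616 to 0.0871), *Meis1* (without transplanted replicate 1, 2 or 3 or fresh mouse 1 or 2, adjusted p 0.0584 to 0.0884) and *Mecom* (without transplanted replicate 1, 2 or 3 or fresh mouse 3, adjusted p 0.00871 to 0.088). Under median-of-ratios scaling *Mecom* and *Meis1* were not called. In the comparison with unseparated cells, *Gata2* (-0.98, adjusted p = 0.00264) and *Mecom* (-0.58, adjusted p = 0.0159) were not called.

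Of 20 genes of quiescence 8 fell and none rose (median -1.24). *Cdkn1c* was at 58.2, 72.8 and 35.7 FPKM in fresh and 10.2, 9.11 and 10.9 FPKM in transplanted cells (log2 fold change -2.30 ± 0.29 SE, adjusted p = 0.00198). *Txnip*, an inhibitor of thioredoxin and glucose uptake, fell from 883, 731 and 372 to 104, 102 and 86.0 FPKM (log2 fold change -2.67 ± 0.30 SE, adjusted p = 0.00147), and *Rbl2* (p130), the pocket protein of resting cells, from 27.0, 24.3 and 29.5 to 5.89, 6.70 and 7.18 FPKM (log2 fold change -1.88 ± 0.25 SE, adjusted p = 0.00214). *Cdkn1a* (p21), at 12.6, 25.8 and 16.0 against 28.8, 18.3 and 15.5 FPKM, and *Cdkn1b* (p27), with a change of -0.99, were not called. Without fresh mouse 3, 13 of the 20 fell, and without transplanted replicate 2, 5 fell. Of 21 p53 targets 6 fell and 1 rose (median -0.85). *Plk2* fell from 56.1, 40.4 and 58.7 to 2.53, 0.637 and 3.89 FPKM (log2 fold change -4.09 ± 0.41 SE, adjusted p = 0.00085) and *Ddit4*, an inhibitor of mTORC1, from 9.91, 7.51 and 5.56 to 0.28, 0.345 and 0.423 FPKM (log2 fold change -2.65 ± 0.32 SE, adjusted p = 0.00181), while *Aen*, a nuclease, rose from 20.0, 21.5 and 9.64 to 37.7, 36.0 and 37.2 FPKM. *Mdm2* (-0.83) and *Ccng1* (-0.84) were not called, and *Mdm2* was called without fresh mouse 3 (-1.08, adjusted p = 0.0092). Without fresh mouse 3, 11 p53 targets fell, and without transplanted replicate 2, 2 fell. Leaving out single libraries removed the call of *Aen* (without transplanted replicate 1, 2 or 3 or fresh mouse 3, adjusted p 0.00741 to 0.101). Against the unseparated old HSCs, *Cdkn1a* (1.48, adjusted p = 0.00104) and *Ccng1* (-1.14, adjusted p = 0.00433) were called.

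**Figure D4:**
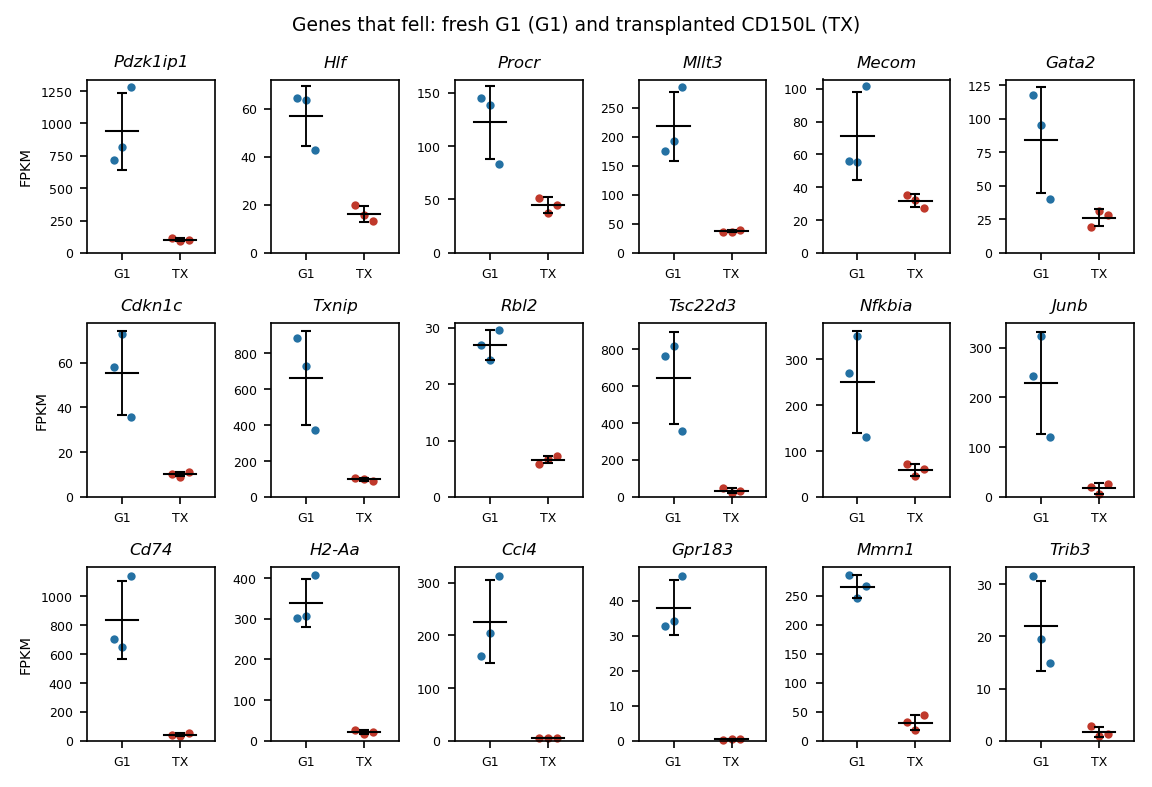
FPKM of 18 genes called as falling, in fresh G1 (blue, mice 1 to 3 from left to right) and transplanted CD150L libraries (red, replicates 1 to 3), with the mean and SD of 3 libraries in black. Every panel has all transplanted values below all fresh values, and fresh mouse 3 is apart from mice 1 and 2 in several, for example *Txnip* at 372 FPKM against 731 and 883 FPKM. The lack of overlap was a condition for naming part of these genes, and it held for 26.1% of all genes tested.

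Megakaryocyte genes, part of which old HSCs express, also fell: 9 of 19 fell and 1 rose (median -1.14). *Mmrn1* (multimerin) was at 285, 246 and 266 FPKM in fresh and 32.1, 18.6 and 44.2 FPKM in transplanted cells (log2 fold change -3.11 ± 0.29 SE, adjusted p = 0.000773). *Plek* (pleckstrin), of platelets, fell from 40.7, 35.5 and 27.98 to 2.36, 2.27 and 3.14 FPKM (log2 fold change -3.31 ± 0.28 SE, adjusted p = 0.000493), *Cavin2* from 86.9, 66.0 and 81.5 to 11.7, 10.7 and 8.93 FPKM (log2 fold change -2.79 ± 0.23 SE, adjusted p = 0.000489) and *Itgb3*, the platelet integrin, from 12.5, 7.36 and 17.4 to 0.793, 1.32 and 1.27 FPKM (log2 fold change -2.59 ± 0.36 SE, adjusted p = 0.00274). *Pf4* fell from 112, 248.9 and 178 to 78.3, 87.2 and 53.8 FPKM. *Vwf* had an adjusted p of 0.0396 but a change of -0.83, under the fold threshold, and *Itga2b* was not called (-0.99) except without fresh mouse 3 (-1.29, adjusted p = 0.0238). The rise was that of *F2rl2*, a thrombin receptor, at 5.16, 0.656 and 1.45 FPKM after transplantation and at most 9.24e-07 FPKM in the fresh mice. Not called when 1 library was left out were *Pf4* (without transplanted replicate 1, 2 or 3 or fresh mouse 2, adjusted p 0.0634 to 0.0881) and *F2rl2* (without transplanted replicate 1, 2 or 3 or fresh mouse 1 or 2, adjusted p 0.0516 to 0.104). With the unseparated group as fresh, *Pf4* (-0.56, adjusted p = 0.043) and *F2rl2* (0.45, adjusted p = 0.448) were not called and *Vwf* (-1.51, adjusted p = 0.000326) was called.

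Genes of rapid signalling and inflammation made up a further block of falls. Of 19 immediate early genes 10 fell and none rose (median -1.49). *Junb*, of the AP-1 factor, was at 243, 324 and 119.9 FPKM in fresh and 20.5, 5.21 and 26.5 FPKM in transplanted cells (log2 fold change -3.78 ± 0.55 SE, adjusted p = 0.00317), with fresh mouse 3 the lowest of the fresh mice. With old HSCs not separated by CD150 as the fresh group 6 of 18 fell (median -0.62). *Tsc22d3*, a target of glucocorticoids, fell from 762, 816 and 358 to 47.6, 21.9 and 33.6 FPKM (log2 fold change -4.17 ± 0.37 SE, adjusted p = 0.000584). Of 16 genes of NF-κB and inflammation 5 fell and 2 rose (median -0.70). *Nfkbia*, the feedback inhibitor of NF-κB, fell from 271, 352 and 132 to 71.0, 45.9 and 59.9 FPKM (log2 fold change -1.98 ± 0.35 SE, adjusted p = 0.00631), and *Traf1* and *Tnfaip3* fell with changes of -2.23 and -1.99. *Tnf* rose, from 0, 0.311 and 0.0147 to 1.84, 1.05 and 1.69 FPKM. The chemokine *Ccl4* showed the largest of all called falls, from 161, 205 and 314 to 6.17, 5.35 and 5.29 FPKM (log2 fold change -5.05 ± 0.27 SE, adjusted p = 0.000105), and *Ccl3* fell from 22.3, 24.9 and 42.3 to 0, 0.843 and 0.0892 FPKM (log2 fold change -4.55 ± 0.38 SE, adjusted p = 0.000489). With single libraries left out, rises in NF-κB and inflammation numbered 1 without transplanted replicate 1 or 2 or fresh mouse 1 or 2. Single left-out libraries ended the call of *Tnf* (without transplanted replicate 1, 2 or 3 or fresh mouse 1 or 2, adjusted p 0.0537 to 0.0881). When the unseparated cells were the fresh group, *Tnfaip3* (-0.65, adjusted p = 0.165) was not called.

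Genes of antigen presentation fell, class II ahead. Of 17 genes 8 fell and none rose (median -0.75). *Cd74*, the invariant chain, was at 707, 651 and 1143 FPKM in fresh and 43.5, 37.4 and 51.7 FPKM in transplanted cells (log2 fold change -4.17 ± 0.25 SE, adjusted p = 0.000105), *H2-Aa* at 303, 306 and 406 against 27.6, 18.2 and 20.97 FPKM (log2 fold change -3.87 ± 0.23 SE, adjusted p = 0.000105) and *H2-Eb1* at 168, 149 and 157 against 13.7, 6.49 and 12.2 FPKM (log2 fold change -3.81 ± 0.28 SE, adjusted p = 0.00034). For all 3 genes every transplanted value lay below every fresh value, which was a condition for naming them. The same held for 26.1% of all genes tested. The B cell marker *Cd79a* stayed under 1 FPKM in all 6 libraries. The 11 B cell markers together summed to 44.4 to 55.4 FPKM in fresh and 22.5 to 33.9 FPKM in transplanted cells. The part of B cells in these falls was not tested. Of 30 interferon-stimulated genes 7 fell (23.3%, against 11.4% of all genes tested) and 2 rose (6.67%, near the 5.84% of all genes tested), with a median of -0.33. *Gbp2* fell from 53.8, 42.1 and 65.9 to 18.6, 12.8 and 11.7 FPKM (log2 fold change -1.84 ± 0.27 SE, adjusted p = 0.00327), *Stat2* and *Irf1* fell with changes of -1.58 and -1.56, and *Isg15* and *Ifi27* rose (1.26 and 1.06). *Klrb1c*, a receptor known from natural killer cells, fell from 21.4, 18.6 and 37.5 FPKM to at most 1.01 FPKM (log2 fold change -4.24 ± 0.39 SE, adjusted p = 0.000744), and *Gpr183*, the oxysterol receptor, from 32.8, 34.2 and 47.1 to 0.239, 0.55 and 0.444 FPKM (log2 fold change -4.78 ± 0.30 SE, adjusted p = 0.000105). Of 8 *Gimap* GTPase genes 3 fell (37.5%). Across leave-one-out fits, rises in interferon-stimulated genes numbered 0 without transplanted replicate 3 or fresh mouse 1, falls in interferon-stimulated genes numbered 2 without transplanted replicate 2 and falls in *Gimap* genes numbered 1 without transplanted replicate 2. Without 1 library at a time, the call was lost for *Irf1* (without transplanted replicate 2 or fresh mouse 2, adjusted p 0.0531 to 0.0538), *Isg15* (without transplanted replicate 1 or 3 or fresh mouse 1 or 2, adjusted p 0.054 to 0.0877) and *Ifi27* (without transplanted replicate 3 or fresh mouse 1 or 2, adjusted p 0.0366 to 0.0511). Taking the unseparated group in place of G1, *Stat2* (-0.80, adjusted p = 0.029) was not called. There, interferon-stimulated genes gave 4 rises and 4 falls of 30.

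Further falls were spread over single genes and other lists. *Sult1a1*, a sulfotransferase, was at 377, 417 and 626 FPKM in fresh and 41.5, 20.2 and 24.2 FPKM in transplanted cells (log2 fold change -4.03 ± 0.30 SE, adjusted p = 0.00034). It belongs to the HSC identity list and was counted there. *Coq8a*, of coenzyme Q synthesis, fell from 131, 90.8 and 37.6 to 6.55, 2.54 and 3.27 FPKM (log2 fold change -4.00 ± 0.47 SE, adjusted p = 0.0015), *Smtnl1* from 20.7, 19.5 and 22.4 to 0, 0.437 and 1.16 FPKM (log2 fold change -3.90 ± 0.35 SE, adjusted p = 0.000643), and *Trim47*, of the ubiquitin ligase family, from 272, 259.7 and 94.8 to 17.4, 6.24 and 17.9 FPKM (log2 fold change -3.80 ± 0.48 SE, adjusted p = 0.00197). In the circadian clock 5 of 15 genes fell and none rose (median -0.98), among them *Per1*, of the negative arm of the clock, from 8.55, 3.11 and 16.3 to 1.01, 1.35 and 1.26 FPKM. Of 11 imprinted genes 6 fell, among them *Dlk1*, from 18.2, 12.9 and 8.15 to 1.65, 1.41 and 2.68 FPKM (log2 fold change -2.24 ± 0.36 SE, adjusted p = 0.00477). Among regulators of G protein signalling *Rgs18* and *Rgs1* fell (2 of 8, 25.0%), with changes of -1.45 and -1.69. Of 22 autophagy and lysosome genes 2 fell (9.09%, against 11.4% of all genes tested), *Bnip3l* (-1.07), the mitophagy receptor, and *Map1lc3a* (-1.25). Adhesion genes were mixed: of 25 adhesion genes 4 fell (16.0%) and 1 rose, *Alcam* fell from 16.6, 15.6 and 24.6 to 2.53, 3.13 and 3.15 FPKM (log2 fold change -2.32 ± 0.30 SE, adjusted p = 0.00198), *S1pr1*, the receptor that guides cells into blood, changed by -2.17, and *Cxcr4* was not called (-0.56). Of 21 cytokine receptors 3 fell (14.3%), among them *Kit* and *Ifnar1*. *Bmp4* fell from 21.3, 14.6 and 9.65 to 3.15, 2.67 and 1.23 FPKM (log2 fold change -2.26 ± 0.38 SE, adjusted p = 0.00561). Of 17 TGF-β, BMP, Notch and Wnt genes 3 fell (17.6%) and 2 rose (11.8%, against 5.84% of all genes tested), *Id1* and *Id3*. Among leave-one-out fits, falls in the clock numbered 1 without fresh mouse 1, falls in imprinted genes numbered 3 without transplanted replicate 2, falls in autophagy and lysosome numbered 0 without transplanted replicate 2 or 3 and 6 without fresh mouse 3, rises in adhesion numbered 0 without transplanted replicate 2 or 3 and 2 without fresh mouse 1, falls in adhesion numbered 10 without fresh mouse 3, falls in cytokine receptors numbered 0 without transplanted replicate 2 and 9 without fresh mouse 3, rises in TGF-β, BMP, Notch and Wnt genes numbered 1 without transplanted replicate 1 or 2 or fresh mouse 2 and falls in TGF-β, BMP, Notch and Wnt genes numbered 1 without transplanted replicate 1, 2 or 3 or fresh mouse 1. A call was lost on leaving out 1 library for *Per1* (without transplanted replicate 1, 2 or 3 or fresh mouse 1, adjusted p 0.0593 to 0.0824), *Bnip3l* (without transplanted replicate 2 or 3 or fresh mouse 3, adjusted p 0.0121 to 0.0744), *Map1lc3a* (without transplanted replicate 2 or 3 or fresh mouse 1 or 2, adjusted p 0.0764 to 0.107) and *Ifnar1* (without transplanted replicate 2, adjusted p 0.0524). In the comparison with unseparated cells, *Per1* (-0.79, adjusted p = 0.0557), *Rgs1* (-0.56, adjusted p = 0.129) and *Ifnar1* (-0.64, adjusted p = 0.0511) were not called. There, autophagy and lysosome gave 5 falls of 22, adhesion gave 3 rises and 9 falls of 25, and TGF-β, BMP, Notch and Wnt genes gave 1 rise and 1 fall of 15.

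Markers of other cells differed between the replicates. Of 24 macrophage markers, 21 were tested, 10 rose and none fell (median 1.92). Markers near 0 in fresh cells entered the test only through their transplanted mean and could not fall. The filter thus raised the count of rises and the median, here and among the stromal markers. *C1qa*, of complement, was listed at 0 in all fresh mice and reached 53.2, 21.7 and 8.49 FPKM in transplanted replicates 1 to 3. *Cd5l* reached 20.0, 8.06 and 1.02 FPKM and *Fcna* 33.8, 12.2 and 3.63 FPKM, likewise from 0 in all fresh mice. The 3 genes were highest in replicate 1 and lowest in replicate 3. *Tyrobp*, an adaptor of myeloid cells, was at 0.743, 0.0846 and 7.52 FPKM in fresh and 132, 59.9 and 37.2 FPKM in transplanted cells (log2 fold change 4.74 ± 0.73 SE, adjusted p = 0.00383). The marker sum of the list was 481.9 to 565.2 FPKM in fresh and 455.0 to 1093.0 FPKM in transplanted cells, and *Lyz2* alone gave 460.2, 538 and 481 FPKM of the fresh sums. *Csf1r* and *Adgre1* were at most 1.58 and 2.08 FPKM and were not called. Without transplanted replicate 3 both were called (1.33, adjusted p = 0.0416, and 1.58, adjusted p = 0.0264). *Adgre1* was also called in 1 fit of all 24 libraries (1.06, adjusted p = 0.0173). Among 15 stromal and endothelial markers 11 were tested and 3 rose, summing to 66.3 to 71.8 FPKM in fresh and to 638.3, 126.4 and 32.0 FPKM in transplanted replicates 1, 2 and 3. *Sparc*, of matrix-producing cells, was at 74.1, 36.5 and 1.16 FPKM in transplanted replicates 1 to 3, *Mfap5*, of microfibrils, was at 89.4, 26.6 and 0.4 FPKM, and *Dcn* (decorin) was at 437, 21.9 and 0 FPKM. *Fabp4*, known from macrophages and fat cells, was at 0.769, 0 and 0 FPKM in fresh and 177, 102 and 9.20 FPKM in transplanted cells (log2 fold change 5.56 ± 0.89 SE, adjusted p = 0.00464), and *Hmox1* (heme oxygenase) at 1.08, 1.42 and 0 against 58.2, 44.8 and 14 FPKM. *Ccl6* was at 34.4, 17.5 and 8.75 FPKM in the transplanted libraries. The part of such cells in the other rises was not tested. Of the neutrophil list 6 genes were tested and 4 fell. *Prtn3* (proteinase 3) fell from 546, 610.2 and 655 to 191, 139.6 and 187 FPKM (log2 fold change -1.81 ± 0.20 SE, adjusted p = 0.0012), and *S100a8* was at 10.3, 49.8 and 1.47 FPKM and *S100a9* at 9.19, 40.8 and 5.12 FPKM in fresh mice 1 to 3, both listed at 0 after transplantation, while *Elane* and *Mpo* stayed under 1 FPKM in all 6 libraries. Of 12 erythroid genes tested 2 rose, the beta globins *Hbb-bs* and *Hbb-bt* (2.69 and 3.09). *Car1* stayed under 0.1 FPKM, *Gata1* and *Klf1* were not called and *Car2* fell from 1373, 1279 and 1714 to 709.6, 463 and 673 FPKM (log2 fold change -1.25 ± 0.22 SE, adjusted p = 0.00664). *Cd3e* was listed at 0 in all 6 libraries. The 12 T and NK cell markers together summed to 78.5 to 194.8 FPKM in fresh and 123.4 to 179.5 FPKM in transplanted cells. Among 3 tested B cell genes none was called, among 3 T and NK cell genes *Klrb1c* fell, and of 10 lymphoid genes 1 rose (10.0%) and *Cd27* fell (10.0%). On omission of single libraries, rises in macrophage markers numbered 6 without transplanted replicate 1 or 2 and 14 without transplanted replicate 3. Falls in neutrophil genes numbered 2 without transplanted replicate 1 or 2 or fresh mouse 1. Rises in stromal markers numbered 0 without transplanted replicate 1 or 2 or fresh mouse 1 or 2 and 5 without transplanted replicate 3. Leaving out single libraries removed the call of *Sparc* (without transplanted replicate 1 or 2 or fresh mouse 1, 2 or 3, adjusted p 0.0583 to 0.176), *Mfap5* (without transplanted replicate 1 or 2 or fresh mouse 1, 2 or 3, adjusted p 0.0544 to 0.185), *S100a8* (without transplanted replicate 1, 2 or 3 or fresh mouse 1, adjusted p 0.0565 to 0.0989) and *Cd27* (without transplanted replicate 2 or fresh mouse 2, adjusted p 0.0538 to 0.055). Against the unseparated old HSCs, *Cd27* (-0.90, adjusted p = 0.00756) was not called and *Gata1* (1.26, adjusted p = 0.00894) was called. There, B cell genes gave 2 falls of 3, and T and NK cell genes gave 1 rise of 3.

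**Figure D5:**
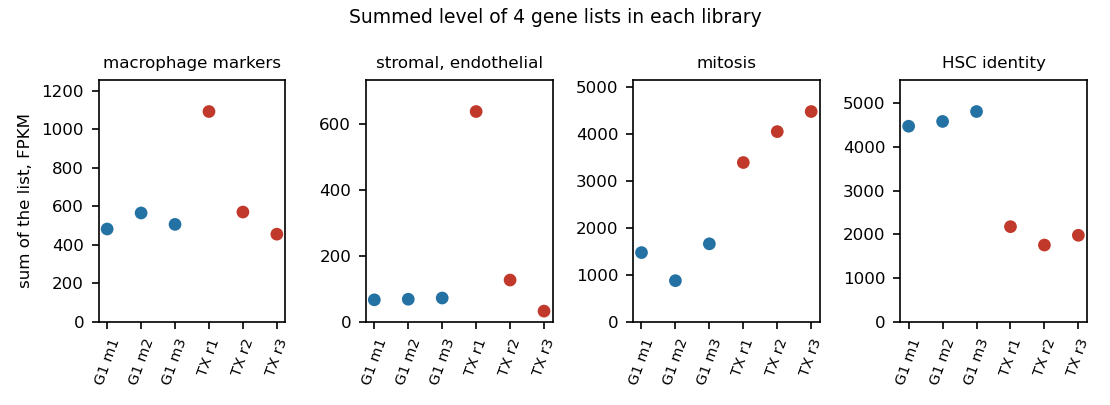
Summed FPKM of 4 gene lists in each library, fresh G1 mice 1 to 3 in blue and transplanted CD150L replicates 1 to 3 in red, each panel on its own axis from 0. Macrophage and stromal sums are highest in transplanted replicate 1 (1093.0 and 638.3 FPKM), mitosis in replicate 3 (4484.4 FPKM), and HSC identity lies at 1752.7 to 2173.5 FPKM in all 3 transplanted libraries.

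Fresh and transplanted CD150H cells (G4 and CD150H, 3 libraries each) allowed a test of whether the response depended on CD150. Of 11894 genes tested for a difference of response, 1 was called at an adjusted p under 0.05 (0.00841%). Without transplanted CD150L replicate 3 the number called was 12, without replicate 2 it was 2, and with every gene above 0 tested it was 7. In the fit of all 12 libraries 786 had an unadjusted p under 0.05 (6.61%). The gene called was *Wfdc17*, of the whey acidic protein domain family. It stood at 123, 117 and 178 FPKM in fresh G1 and 33.5, 22.8 and 13.3 FPKM in transplanted CD150L cells, a fall (log2 fold change -2.60 ± 0.33 SE, adjusted p = 0.00198). In fresh G4 cells it was at 10.4, 15.0 and 8.33 FPKM and in transplanted CD150H cells at 28.8, 23.7 and 34.0 FPKM. The response in CD150L minus that in CD150H was -3.91 (adjusted p = 0.00327). The transplanted groups overlapped and the fresh groups did not. The macrophage marker *C1qa* was at 0 FPKM in all fresh G1 and G4 libraries and at 46.0, 16.8 and 45.4 FPKM in transplanted CD150H cells. The part of macrophages in the *Wfdc17* values was not tested. For *Cd74* and *Ube2c* the difference of response was -1.09 ± 0.35 SE (adjusted p = 0.688) and -0.78 ± 1.04 SE (adjusted p = 0.887). Neither passed, and a p that misses the threshold does not show that CD150L and CD150H cells respond alike. With the unseparated group as fresh, *Wfdc17* (-0.80, adjusted p = 0.0714) was not called.

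The study's own lists of genes that differ between young and old HSCs were set beside the response. They were made from libraries of young and of unseparated old HSCs, outside these 6, and they were chosen by a result of the same study. Of 256 tested genes higher in old HSCs, 130 fell (50.8%, against 11.4% of all genes tested) and 2 rose (median -1.25). Of 228 tested genes lower in old HSCs, 111 rose (48.7%, against 5.84% of all genes tested) and 6 fell (median 1.19). Members such as *C1qa* and *Id1*, with fresh means of 0 and 0.970 FPKM, entered the test only through their transplanted mean. They could not fall, so the filter raised the share of rises and the median of this list. Likewise *Gpr183* and *Klrb1c*, with transplanted means of 0.411 and 0.418 FPKM, entered only through their fresh mean and could not rise. This raised the share of falls. The falling genes included *Klrb1c*, *Gpr183* and *Sult1a1*, and the exceptions among genes higher in old HSCs were *Gem* and *Lgmn* (legumain, a lysosomal protease), which rose by 2.54. Many genes lower in old HSCs belong to the cell cycle. Without the 59 members of the cell cycle, repair and histone lists, 66 of 169 rose and 4 fell (median 1.00). The rising genes included the macrophage markers *Tyrobp*, *C1qa* and *C1qc* as well as *Id1* and *Lgals1*. *Il4* and *H1f2* fell against the direction of their list, *Il4* from 36.6, 32.4 and 48.7 to 10.8, 10.8 and 12.4 FPKM (log2 fold change -1.69 ± 0.25 SE, adjusted p = 0.00323). In fits without 1 library, rises in genes higher in old HSCs numbered 1 without transplanted replicate 1 or 2 and 4 without transplanted replicate 3, falls in genes higher in old HSCs numbered 78 without transplanted replicate 2 and falls in genes lower in old HSCs numbered 10 without fresh mouse 3. Not called when 1 library was left out were *Lgmn* (without transplanted replicate 1 or 2, adjusted p 0.0676 to 0.0755). When the unseparated cells were the fresh group, *H1f2* (-0.48, adjusted p = 0.0663) was not called, but its list was chosen for low levels in those same libraries.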

How the data were processed

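Fresh and transplanted old HSCs were profiled by bulk RNA-seq (SMART-Seq v4, a Smart-seq2 type kit), and the authors deposited 1 table of FPKM per gene for each library. Per the methods and the submitters' processing notes, reads were trimmed with Trim Galore, aligned to mm10 with HISAT2 2.0.0, converted with SAMtools 1.14, counted without strand with HTSeq 0.12.4 and normalized with DESeq2 1.22.2. The notes also name Cufflinks, with no role. Which step gave the deposited FPKM is not given in the sources used here. Without strand, overlapping antisense genes cannot be told apart, and near-identical copies may share reads. Read totals are not given, so depth is known only as a ratio between libraries.

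Libraries were grouped by their titles. FPKM were taken as log2(FPKM + 1), genes whose mean reached 1 FPKM in either group entered limma 3.58.1 (trend, R 4.3.3), and p-values were adjusted by Benjamini-Hochberg over all genes tested. A call needed an adjusted p below 0.05 and a more than 2-fold change either way, so it can also be lost through the fold threshold at an adjusted p under 0.05. The difference of response between CD150L and CD150H cells was an interaction in a fit of 12 libraries, without a term for the mouse. The titles of fresh G1 and G4 carry the same mouse numbers, so these libraries may be paired. The scripts were tested on simulated data. There, 24% of 2.5-fold rises, 56% of 4-fold rises, 24% of falls to 0.4 and 34.7% of falls to 0.25 were called. Of simulated 8-fold differences of response 68% were called, and 6.9% of all calls for a difference of response were of unchanged genes. A gene that was not called may therefore have changed. Genes were named by rule: fixed members of each list, up to 3 called rises and 3 called falls per list without overlap between groups, the 15 largest rises and 15 largest falls where the higher group averaged 10 FPKM or more, and the 5 genes with the smallest p for the difference of response. *Cd5l*, *Dcn*, *Id3*, *Lyz2*, *Manf*, *Hba-a1*, *Hba-a2* and the genes of 4 of the printed promoters (*Ncapg*, *Cdc20*, *Cks1b*, *Cdc6*) fall outside it and were named after their values were seen. Some genes that the rule names are not reported here. Members and lists were chosen with earlier results of these data known. The alternatives changed the pseudocount, the filter, the scaling, the fresh group, the replicate block and the libraries fitted. Python 3.11.15, pandas 2.3.3 and matplotlib 3.10.9 made tables and plots.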

Additional observations from a re-analysis of the deposited data

Results flagged for a closer look

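The response of *Wfdc17* to transplantation differed between CD150L and CD150H cells, by a test of the difference itself. In fresh G1 cells it was at 123, 117 and 178 FPKM and in transplanted CD150L cells at 33.5, 22.8 and 13.3 FPKM. In fresh G4 cells it was at 10.4, 15.0 and 8.33 FPKM and in transplanted CD150H cells at 28.8, 23.7 and 34.0 FPKM. The response of CD150L minus that of CD150H was -3.91 on the log2(FPKM + 1) scale (limma interaction, adjusted p = 0.00327). It was the only one of 11894 genes called in the fit of 12 libraries, and 786 had an unadjusted p under 0.05. Without transplanted CD150L replicate 3 the number called was 12. All 3 CD150L values lay below all fresh G1 values, and all 3 CD150H values lay above all fresh G4 values. The change in CD150H cells alone was not tested. The macrophage marker *C1qa* was at 0 FPKM in all fresh G1 and G4 libraries. After transplantation it was at 53.2, 21.7 and 8.49 FPKM in CD150L and 46.0, 16.8 and 45.4 FPKM in CD150H cells. The part of macrophages in the *Wfdc17* values was not tested. The fall in CD150L cells was not called with old HSCs not separated by CD150 as the fresh group (-0.80, adjusted p = 0.0714).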

How the results depend on the processing

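No gene called in both the reported fit and an alternative changed direction, in any of the 15 alternatives. With the filter reduced to any value above 0 (18489 genes tested), 348 genes rose and 643 fell and 7 differed in response. With libraries scaled to the same sum 449 rose, and *Aen*, *Cxcl12*, *F2rl2*, *Hk2*, *Hsp90b1*, *Ifi27*, *Mfap5*, *Ncl*, *Psmd14* and *Sparc* were not called. That scaling added calls for *Cdkn1b* (-1.12, adjusted p = 0.041) and *Vwf* (-1.01, adjusted p = 0.0176). With median-of-ratios scaling *Bnip3l*, *Dnajb9*, *Gimap6*, *Mecom*, *Meis1*, *Msmo1*, *Rbpjl* and *Smad7* were not called, and *Gapdh* was called (1.06, adjusted p = 0.00584). On leaving out 1 library, rises ranged from 359 to 829 and falls from 518 to 1868, lowest without transplanted CD150L replicate 2 and highest without fresh G1 mouse 3. Genes that differed in response ranged from 1 to 12, with 12 without transplanted CD150L replicate 3 and 2 without replicate 2. Without fresh G1 mouse 3 and with libraries scaled to the same sum, an alternative chosen after seeing the data, 2870 fell. With old HSCs not separated by CD150 as the fresh group, the changes of *Cdk6* (1.20, adjusted p = 0.00611) and *Hk1* (0.203) reversed, and the causes were not tested. In the same comparison 33 of the named genes lost their call and 7 gained one. Pseudocount 0.1 kept the call of every named gene tested. With the replicate block 642 rose, 1097 fell and 1 gene differed in response. Deviations of same-numbered fresh G1 and transplanted CD150L libraries correlated at 0.034, -0.134 and -0.099, which cannot settle whether the numbers pair animals. Depth limits low genes most, since the transplanted libraries held 0.584 to 0.673 of the depth of fresh mouse 1.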
